A study of Mus musculus with 21 samples.

Results

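Expression of 56 neuropeptide system genes was examined in the newborn mouse subcommissural organ (SCO) and hippocampus. The genes were taken by symbol from a list of 18 peptide precursors, 27 receptors, 6 granins and other granule proteins, 4 processing enzymes and 1 binding protein. All 56 were found among the 31883 genes of the deposited table. The SCO is a gland at the dorsal midline of the brain, under the posterior commissure, whose ependymal cells secrete into the third ventricle. The tissues compared were SCO (4 libraries) and hippocampus (5 libraries) of C57BL/6 mice on postnatal day 0, from bulk sequencing of total RNA, with no treatment or genotype named in the labels. The series also holds 6 SCO and 6 hippocampus samples of postnatal day 60, which were not analysed here. The series text names differential expression between the tissues in adults and gene set enrichment between them at postnatal day 0.

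Depth was 35379988 to 151009954 reads per library, and values are normalized counts, that is reads per gene divided by a size factor of the library. Whether each library is a separate animal is not stated in the labels, so the spread behind each p-value is that among these libraries and may be technical. The tissue labels were checked against marker genes. The summed level of 6 SCO ependymal genes was 21394 to 43809 in SCO and 641 to 1329 in hippocampus, and that of 7 excitatory neuron genes of cortex and hippocampus was 608 to 2653 in SCO and 80265 to 97193 in hippocampus. The SCO libraries also held markers of neighbouring neurons. The sum over 7 habenular markers was 18730 to 33327 in SCO and 5071 to 9746 in hippocampus. Slc17a6 alone gave 11117 to 15152 of it in SCO. Chrna3 and Irx2 were read in every SCO library, but Pou4f1 (4504, 2955, 0 and 114) and Gpr151 (3552, 1527, 0 and 0) were not. Over 6 pretectal and midbrain GABAergic markers the sum was 12012 to 27661 in SCO and 9 to 207 in hippocampus. Otx2 gave 7705 to 8708 of it in SCO. The sum over 5 thalamic markers was 41939 to 74582 in SCO and 6810 to 11045 in hippocampus. Most of it in SCO came from Tcf7l2 (22202 to 49664) and Calb2 (13917 to 25919). Prkcd had the lower mean in SCO (928, against 1289), and Gbx2 had 186, 1.48, 0 and 0 in SCO. The sum over 5 endothelial markers was 12797 to 14663 in SCO and 6820 to 11806 in hippocampus, and that over 5 microglial markers 15967 to 20053 in SCO and 5429 to 13868 in hippocampus. SCO replicate 4 stood apart in its choroid plexus markers, which summed to 177799 there and to 1424 to 4198 in the other SCO libraries, against 82 to 13934 in hippocampus. Hippocampus replicate 2 stood apart in the neuropeptide genes themselves, as described further on. Markers of hypothalamic neurons, the brain's richest source of many neuropeptides, summed to 1593 to 3548 in SCO and 2345 to 3772 in hippocampus, with Agrp making up most of both (1365 to 3123 in SCO and 2108 to 3574 in hippocampus). Avp and Kiss1 were at 0 in every SCO library, and in 3 and 4 of the 5 hippocampus libraries. The part of these cell populations in the neuropeptide results was not tested, and in bulk tissue fewer cells of a type and less RNA per cell cannot be told apart.

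Neuropeptides are made as precursor proteins that are sorted into dense-core granules, where prohormone convertases, carboxypeptidase E and an amidating enzyme cut and trim them to active peptides. Granins help to form these granules. The released peptides act at a distance on receptors that are almost all coupled to G proteins, and in the forebrain they mark classes of neurons: somatostatin, neuropeptide Y, vasoactive intestinal peptide and cholecystokinin label interneurons of cortex and hippocampus, and tachykinin 1 labels a part of the medial habenula.

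Of the 56 genes, 7 passed the test at a limma adjusted p under 0.05, which is 12.5%, against 3.05% of all 28150 genes tested and 4.00% of the 17061 protein-coding ones. Npsr1, Tac1 and Nmb were higher in SCO, and Cck, Nts, Sstr2 and Grp were lower. The share of all genes called higher was 1.71% and the share called lower 1.34%. The 4 SCO values lay wholly above or wholly below the 5 hippocampus values in 12 of the 56 genes, which is 21.4%, against 8.53% of all genes and 10.7% of protein-coding genes. The SCO values were the higher ones in 6 (4.78% of all genes) and the lower ones in 6 (3.75% of all genes). The log2 difference used here is the mean log2(normalized count + 1) in SCO minus that in hippocampus, with its standard error (SE) from limma. Its median was -0.37 over the 56 genes and -0.04 over all genes. All 56 passed the filter of a mean of 1 or more in one of the tissues, 48 of them in both tissues, 2 through SCO only (Nmu and Trh) and 6 through hippocampus only (Sstr4, Oxtr, Vipr1, Vip, Sstr3 and Grpr). With edgeR on the recovered reads 4 of the 56 were called, all lower in SCO, against 1.79% of all genes in either direction and 0.721% lower, and with DESeq2 11 were called, against 9.62%. By role, 5 of 18 precursors were called, 2 of 27 receptors, and none of the granule proteins, processing enzymes or the binding protein.

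**Figure D1:**
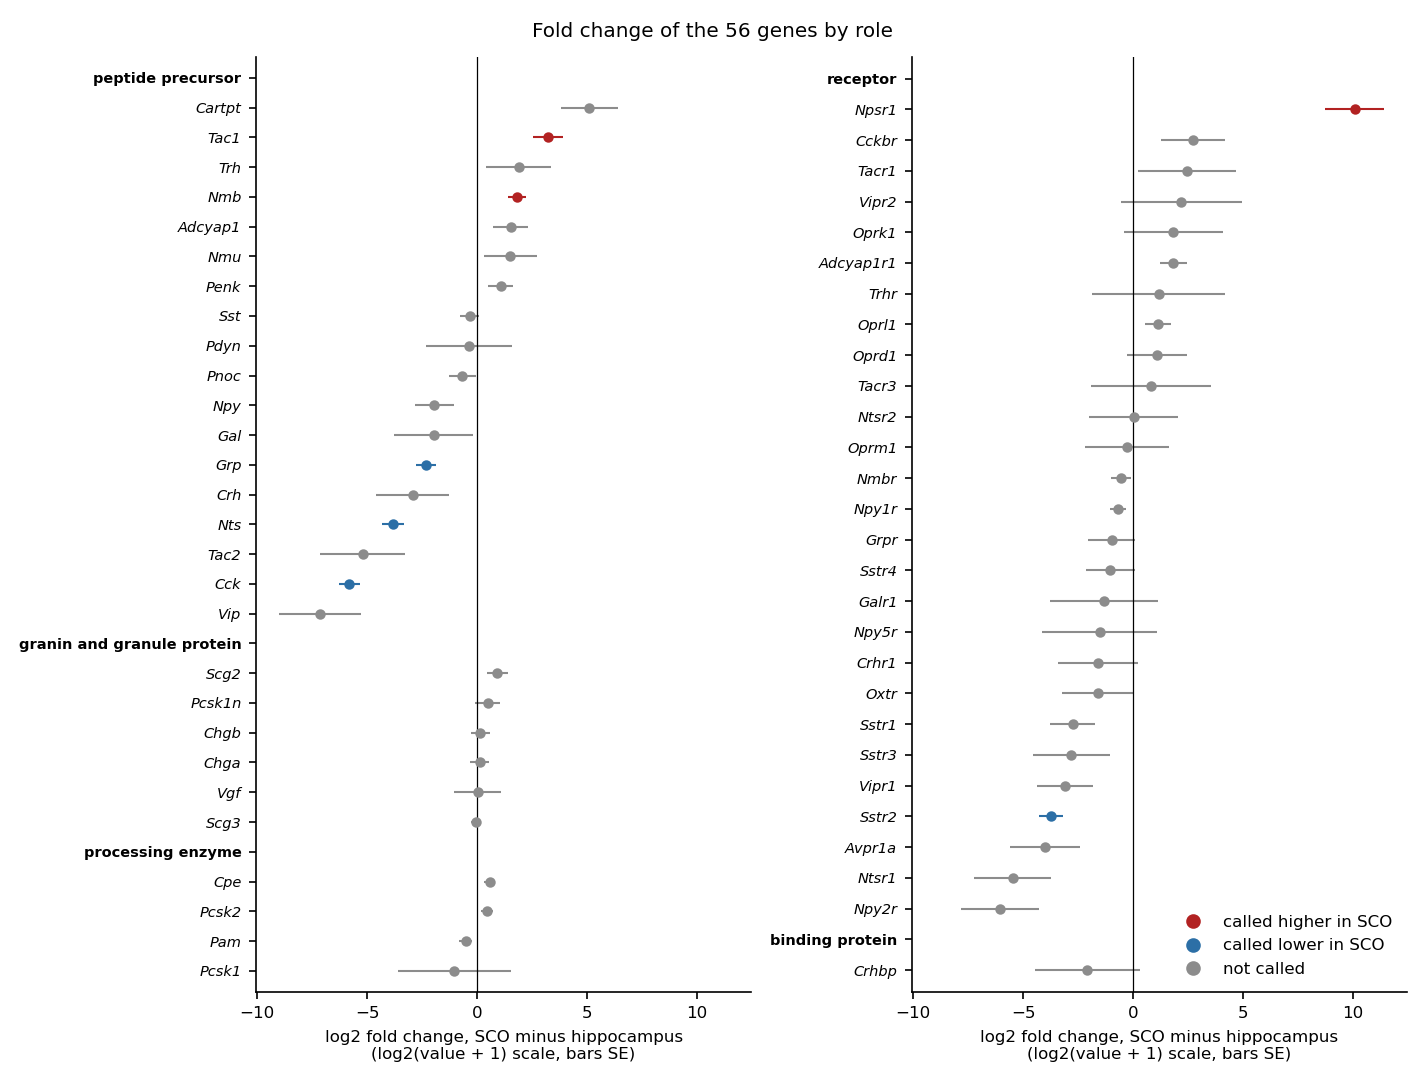
Log2 fold change of each of the 56 genes (SCO minus hippocampus, horizontal axis), grouped by role, with bars of 1 standard error from limma; red and blue points passed the adjusted p threshold of 0.05 and grey ones did not. Npsr1 at 10.07 lies farthest to the right, Cck at -5.81 is the lowest of the called genes, and no granin or processing enzyme is coloured.

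The promoters of 5 of the 7 called genes, with that of Sst, are shown because they hold the cyclic AMP response element (CRE) or its core motif, an element known from neuropeptide promoters and described early in the somatostatin gene. They were chosen after the values were seen. Of the other called genes, Nmb was searched and held neither motif, and Grp had no matched promoter. The sequences are the 250 bases before each RefSeq gene start in GRCm38.p6, 5′ to 3′ on the gene's strand: Npsr1 at chr9:24097768-24098017 (+), Tac1 at chr6:7554811-7555060 (+), Cck at chr9:121495695-121495944 (-), Nts at chr10:102490419-102490668 (-), Sstr2 at chr11:113619077-113619326 (+) and Sst at chr16:23890845-23891094 (-). Capitals mark the full CRE TGACGTCA or, where there is none, the core motif TGACG, which reads CGTCA on the other strand.
Npsr1: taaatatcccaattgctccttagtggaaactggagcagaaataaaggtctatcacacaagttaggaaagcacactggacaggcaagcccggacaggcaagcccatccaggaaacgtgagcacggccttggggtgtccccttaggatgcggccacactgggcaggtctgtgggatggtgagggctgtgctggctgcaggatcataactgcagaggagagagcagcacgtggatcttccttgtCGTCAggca
Tac1: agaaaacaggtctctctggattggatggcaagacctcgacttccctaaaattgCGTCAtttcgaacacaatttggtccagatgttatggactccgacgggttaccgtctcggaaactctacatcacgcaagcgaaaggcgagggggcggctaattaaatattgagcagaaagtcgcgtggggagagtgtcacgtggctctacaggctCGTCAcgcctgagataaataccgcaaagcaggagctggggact
Cck: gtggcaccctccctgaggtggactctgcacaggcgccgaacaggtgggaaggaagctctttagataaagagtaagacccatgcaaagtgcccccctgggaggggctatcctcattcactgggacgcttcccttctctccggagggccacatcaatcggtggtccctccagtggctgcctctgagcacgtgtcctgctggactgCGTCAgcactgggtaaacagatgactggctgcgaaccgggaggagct
Nts: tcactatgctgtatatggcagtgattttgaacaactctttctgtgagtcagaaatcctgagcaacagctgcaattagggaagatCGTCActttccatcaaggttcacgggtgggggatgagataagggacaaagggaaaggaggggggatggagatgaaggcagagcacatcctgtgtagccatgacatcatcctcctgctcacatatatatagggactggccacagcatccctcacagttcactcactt
Sstr2: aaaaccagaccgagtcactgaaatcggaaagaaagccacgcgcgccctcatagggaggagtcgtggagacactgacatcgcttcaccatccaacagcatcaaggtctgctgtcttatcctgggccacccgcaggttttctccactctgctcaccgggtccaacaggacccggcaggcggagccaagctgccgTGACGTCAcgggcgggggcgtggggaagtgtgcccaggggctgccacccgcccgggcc
Sst: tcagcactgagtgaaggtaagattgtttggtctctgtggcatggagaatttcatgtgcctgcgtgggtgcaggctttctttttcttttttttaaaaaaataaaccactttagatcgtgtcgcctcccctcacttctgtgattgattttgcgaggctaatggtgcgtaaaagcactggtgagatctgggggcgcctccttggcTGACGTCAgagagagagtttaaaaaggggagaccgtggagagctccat
The full element stands at position -58 of Sstr2 and -48 of Sst, counted from the gene start. Core motifs stand at -9 in Npsr1, at -197 and -43 in Tac1, at -47 in Cck and at -166 in Nts. The GENCODE M21 genes of Npsr1, Tac1, Nts and Sst begin inside these windows, so that the motifs of Npsr1 and Sst and the one at -43 of Tac1 lie past the GENCODE start. Searched on both strands, TGACGTCA was found in 508 of 32851 RefSeq promoters (1.55%). Counted by gene, it was found in 478 of 27025 genes (1.77%). Of the 46 listed genes that had a promoter in the table, 6 held it (13.0%), namely Cartpt, Chgb, Pcsk1, Scg2, Sst and Sstr2. The core motif, which also lies within the full element, was found in 17.8% of all promoters, in 19.8% of all genes and in 25 of the 46 (54.3%). The genes with core motifs lie on both sides of the comparison, and Sst, with the full element, did not pass the test. These are matches of letters only.

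Cck, Nts and Grp were the precursors called lower in SCO. Cck encodes cholecystokinin, a peptide of gut and brain that is abundant in cortical and hippocampal neurons. It had 388, 145, 86.7 and 341 normalized counts in the 4 SCO libraries, against 7818, 21459, 9121, 12506 and 10048 in the 5 hippocampus libraries. The highest SCO value was far below the lowest hippocampal one. The hippocampal mean was 50.8 times as high, with a log2 difference of -5.81 (SE 0.49, limma adjusted p = 0.000283). The gene lies at chr9:121489824-121495694 on the minus strand (GRCm38).

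Nts encodes the precursor of neurotensin and neuromedin N, and its gene lies at chr10:102481756-102490486 on the minus strand. It had 2329, 923, 3756 and 1603 normalized counts in SCO, against 15638, 67447, 33190, 29792 and 14207 in hippocampus. It was lower in every SCO library than in any hippocampal one, but its lowest SCO value was above the highest of Cck. Its hippocampal mean was 14.9 times as high, with a log2 difference of -3.84 (SE 0.51, limma adjusted p = 0.00291).

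Grp encodes gastrin-releasing peptide, a bombesin-like peptide of excitatory neurons in the forebrain, and lies on chromosome 18. It had 662, 310, 366 and 370 normalized counts in SCO, against 971, 4517, 1778, 2379 and 2020 in hippocampus. The tissues did not overlap, and SCO replicate 1 came closest to the hippocampal range. The log2 difference was -2.33 (SE 0.46, limma adjusted p = 0.0243). The call ended without SCO replicate 2, 3 or 4 or hippocampus replicate 3 or 4, with limma adjusted p of 0.0564 to 0.0648.

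Tac1 and Nmb were the precursors called higher in SCO. Tac1 encodes substance P and neurokinin A, and lies at chr6:7554879-7565834 on the plus strand. It had 3090, 3105, 3640 and 3536 normalized counts in SCO, against 78.7, 1063, 408, 241 and 696 in hippocampus. The SCO libraries were nearly alike, with a mean of 3343 ± 286 (SD, n = 4), while the hippocampus libraries, at 497 ± 390 (SD, n = 5), were spread out and stayed below all of them. The log2 difference was 3.22 (SE 0.67, limma adjusted p = 0.0293). The call ended when any one of the SCO libraries or hippocampus replicate 3 or 4 was left out (limma adjusted p of 0.0639 to 0.0758), with log2 differences of 3.08 to 3.27, and in edgeR the adjusted p was 0.0584.

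Nmb encodes neuromedin B, the other mammalian bombesin-like peptide, at chr7:80902227-80905076 on the minus strand. It had 1058, 1106, 1237 and 873 normalized counts in SCO, against 466, 216, 226, 370 and 286 in hippocampus. Every SCO library was higher than every hippocampus library, so the pair of bombesin-like peptides, Nmb and Grp, went in opposite directions. The log2 difference of Nmb was 1.82 (SE 0.40, limma adjusted p = 0.0375). The call ended without any one of the SCO libraries or hippocampus replicate 3, 4 or 5 (limma adjusted p of 0.0634 to 0.106), and in edgeR the adjusted p was 0.0846. Nmb shares 163 exon bases with Sec11a on the same strand, so reads from the shared stretch cannot be assigned to one of them.

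**Figure D2:**
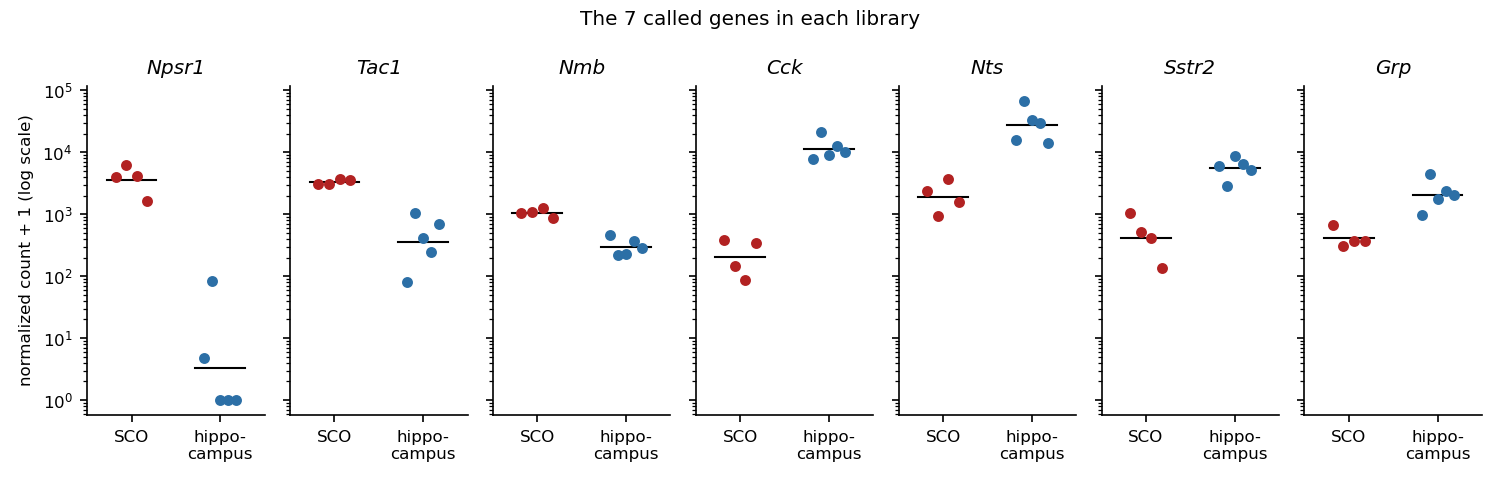
Normalized count + 1 (vertical axis, log scale) of the 7 called genes in each library, SCO left and hippocampus right; points are libraries and black lines are means on the log2(value + 1) scale. For each gene the SCO points and the hippocampus points do not overlap, with the 3 genes higher in SCO set before the 4 that were lower.

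Cartpt, the precursor of the CART peptides, did not pass the test although the tissues did not overlap. It had 1969, 1029, 519 and 592 normalized counts in SCO, against 33.7, 101, 57.8, 55.6 and 0 in hippocampus, a log2 difference of 5.10 (SE 1.28, limma adjusted p = 0.0639). It passed in 1 of the 9 fits that left out a library. That was the fit without hippocampus replicate 5, the library at 0 (log2 difference 3.93, limma adjusted p = 0.0152). On the recovered reads DESeq2 gave an adjusted p of 0.000769 and edgeR 0.128, and limma with the replicate block gave 0.0864. Vip, the precursor of vasoactive intestinal peptide, showed the opposite layout. It was at 0 in all 4 SCO libraries, and had 392, 0, 429, 444 and 807 normalized counts in hippocampus. Against a floor of 3 reads per library its mean was at least 110-fold lower in SCO, although hippocampus replicate 2 was at 0 as well. It passed the filter through hippocampus only, and it did not pass the test (log2 difference -7.16, SE 1.87, limma adjusted p = 0.0726). The adjusted p was 0.0801 in edgeR and 4.13e-07 in DESeq2. Without hippocampus replicate 2 the limma adjusted p was 0.000993, but that fit removes the only hippocampal value that overlapped with SCO.

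Sst, Npy and Pnoc, which in hippocampus mark interneurons, were also abundant in SCO and did not pass the test. Sst, the precursor of somatostatin, had 3990, 3321, 4912 and 5768 normalized counts in SCO, against 3962, 17320, 4440, 4620 and 3945 in hippocampus (log2 difference -0.35, SE 0.44, limma adjusted p = 0.703). Apart from hippocampus replicate 2, all libraries lay in one narrow band. Npy, the precursor of neuropeptide Y, had 616, 269, 3717 and 7079 in SCO, against 4886, 15823, 4652, 4546 and 3445 in hippocampus (-1.96, SE 0.89, limma adjusted p = 0.324). SCO replicates 1 and 2 were below every hippocampus library, and replicates 3 and 4 were among them. Pnoc, which encodes the precursor of nociceptin, had 358, 455, 1704 and 3150 in SCO, against 1323, 2788, 1413, 1422 and 1186 in hippocampus (-0.67, SE 0.63, limma adjusted p = 0.639), with the same split of SCO libraries. The sum over 8 telencephalic interneuron markers was 3273 to 48346 in SCO and 10932 to 20788 in hippocampus, and 5 of the 8 were called lower in SCO. The interneuron factor Dlx1 was at 0 in every SCO library, against 1319 to 4131 in hippocampus, and Dlx2 was at 0 in SCO, against 58.2 to 109. Lhx6 reached 19.4 in SCO replicate 1 and Dlx5 reached 332 in replicate 2. The GABA synthesis genes Gad1 and Gad2, of the same list, were read in every SCO library and did not pass the test.

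The opioid precursors and Tac2 varied widely within SCO. Penk, the proenkephalin gene, had 470, 3098, 2006 and 3831 normalized counts in SCO, against 512, 944, 937, 990 and 1153 in hippocampus (log2 difference 1.06, SE 0.58, limma adjusted p = 0.431). All but SCO replicate 1 were above all of hippocampus. Pdyn, the prodynorphin gene, had 704, 0, 2460 and 1152 in SCO, against 600, 304, 383, 204 and 112 in hippocampus. With its single 0 the log2 difference was -0.39 (SE 1.96, limma adjusted p = 0.938), although its mean was 3.37 times as high in SCO, and without SCO replicate 2 it was 2.19. Tac2, the neurokinin B precursor, had 904, 208, 0 and 0 in SCO, against 865, 1454, 466, 754 and 608 in hippocampus (-5.21, SE 1.93, limma adjusted p = 0.212). The 2 tachykinin precursors thus had opposite signs, and SCO replicate 1 alone reached the hippocampal range of Tac2.

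Adcyap1 and Gal completed the precursors above a mean of 500. Adcyap1, the precursor of PACAP, a peptide that raises cyclic AMP, had 1883, 1079, 614 and 837 normalized counts in SCO, against 52.4, 664, 787, 672 and 293 in hippocampus (log2 difference 1.52, SE 0.79, limma adjusted p = 0.401). The groups overlapped. Gal, the galanin precursor, had 797, 0, 879 and 918 in SCO, against 353, 612, 765, 716 and 813 in hippocampus. It was a little above or within the hippocampal range in 3 SCO libraries and at 0 in SCO replicate 2, with a log2 difference of -1.98 (SE 1.81, limma adjusted p = 0.63) and of 0.46 without that library. Crh, Trh and Nmu, which encode the hypothalamic releasing hormones for ACTH and TSH and neuromedin U, stayed below 200 in every library. Trh and Nmu were seen in SCO replicate 3 alone, at 189 and 63.9 normalized counts.

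Npsr1 was the receptor called higher in SCO. It encodes the G protein-coupled receptor of neuropeptide S, a peptide of a few brainstem nuclei that promotes arousal, and lies at chr9:24097996-24316398 on the plus strand. It had 3945, 6123, 4094 and 1627 normalized counts in SCO, against 3.75, 82.5, 0, 0 and 0 in hippocampus. The lowest SCO library was far above the highest hippocampal one, and 3 hippocampus libraries had no read. The log2 difference was 10.07 (SE 1.36, limma adjusted p = 0.00309). It was 9.64 to 11.24 and passed without any single library (highest limma adjusted p 0.0144), and in edgeR its adjusted p was 0.0597. Reads in the 94 bases that its exons share with Gm47674, on the opposite strand, cannot be assigned to either, since no strand setting is stated.

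Its ligand gene, Nps, was almost unread in both tissues. It had 0, 7.38, 0 and 1.12 normalized counts in SCO, against 0, 0, 1.03, 1.10 and 0.761 in hippocampus (log2 difference 0.46, SE 0.80, limma adjusted p = 0.799). The 6 SCO ependymal markers summed to 21394, 43809, 31222 and 22010 in SCO, against 1329, 913, 801, 766 and 641 in hippocampus. In SCO the sum was highest in replicate 2 and lowest in replicate 1, while Npsr1 was highest in replicate 2 and lowest in replicate 4. Hippocampus replicate 2, which held most of the hippocampal Npsr1, was the highest hippocampus library for 3 of the 6 markers (Sspo, Rsph4a and Spdef) and the lowest for Car3 and Foxj1, and replicate 1 had the highest sum. The part of these cells in the Npsr1 level was not tested.

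Sstr2 was the only receptor called lower. It encodes a somatostatin receptor that inhibits adenylyl cyclase, at chr11:113619342-113626028 on the plus strand. It had 1041, 518, 416 and 132 normalized counts in SCO, against 6102, 2833, 8700, 6481 and 5226 in hippocampus. The tissues were well apart, while the ligand, Sst, did not pass the test. The log2 difference was -3.73 (SE 0.56, limma adjusted p = 0.00559), and it passed without any single library. Sstr1 had 46.2, 1.48, 24.6 and 47 in SCO, against 175, 139, 98, 84.5 and 179 in hippocampus, with no overlap (-2.74, limma adjusted p = 0.221), and Sstr3 and Sstr4 were at 0 in all SCO libraries.

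The receptors of the called peptides did not follow their ligands in any single way. Cckbr, the main cholecystokinin receptor of the brain, had 977, 1639, 2592 and 1136 normalized counts in SCO, against 2.497, 480, 746, 691 and 612 in hippocampus. Every SCO library was above every hippocampus library, the reverse of Cck, and hippocampus replicate 1 was far below the rest (log2 difference 2.74, SE 1.45, limma adjusted p = 0.41). Ntsr1, the main signalling receptor of neurotensin, had 0, 0, 0 and 398 in SCO, against 101, 383, 158, 313 and 159 in hippocampus (-5.48, limma adjusted p = 0.141). Its means were 99.6 in SCO and 223 in hippocampus, and edgeR gave a log2 difference of -1.17 (adjusted p = 0.816). Leaving out SCO replicate 4, the only SCO library with reads, leaves nothing but 0 in SCO. The limma adjusted p of 0.00425 in that fit follows from this choice and adds no support. Tacr1, the substance P receptor, ranged over 1.83 to 467 in SCO and 0 to 505 in hippocampus. Nmbr, the neuromedin B receptor, had 545, 359, 379 and 308 in SCO, against 660, 307, 794, 442 and 865 in hippocampus (-0.56, SE 0.45, limma adjusted p = 0.596). Grpr, the receptor of gastrin-releasing peptide, was at 0 in all SCO libraries and at 28.9 in one hippocampus library, so neither tissue held much of it.

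Of the neuropeptide Y receptors, Npy1r was present throughout. It had 1191, 1003, 793 and 2243 normalized counts in SCO, against 2600, 1154, 2223, 1973 and 2103 in hippocampus (log2 difference -0.69, SE 0.38, limma adjusted p = 0.437). Npy2r, a presynaptic receptor that curbs transmitter release, had 0, 546, 0 and 14.6 in SCO, against 1052, 137, 1572, 1199 and 388 in hippocampus (-6.06, SE 1.77, limma adjusted p = 0.104). SCO replicate 2 alone kept the tissues overlapping, and without it the log2 difference was -8.00 (limma adjusted p = 0.0125). With all libraries, edgeR gave -2.70 (adjusted p = 0.427). Npy5r had 628 in SCO replicate 4 and 0 in the other SCO libraries.

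Oprl1 and Adcyap1r1 were read in every library of both tissues. Oprl1, the nociceptin receptor, had 5125, 5356, 6922 and 8991 normalized counts in SCO, against 3900, 573, 4803, 4621 and 4401 in hippocampus. All SCO libraries were above all hippocampus libraries by a small margin, and the fold change did not pass (log2 1.13, SE 0.59, limma adjusted p = 0.405). Adcyap1r1, the PACAP receptor PAC1, had 1182, 4177, 5081 and 3336 in SCO, against 1543, 816, 288, 657 and 1904 in hippocampus (1.82, SE 0.61, limma adjusted p = 0.16). SCO replicate 1 lay within the hippocampal range. The adjusted p was 0.0316 in DESeq2 and 0.189 in edgeR. Avpr1a, the vasopressin V1a receptor, had 325, 0, 326 and 395 in SCO, against 1165, 1288, 1062, 833 and 2861 in hippocampus, with no overlap (-4.02, SE 1.59, limma adjusted p = 0.248). The classical opioid receptors Oprm1, Oprd1 and Oprk1 stayed at or below 639 in every library and overlapped between tissues.

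The remaining receptors were low or patchy, and none passed the test. The VIP receptor Vipr1 was at 0 in all SCO libraries and at 0 to 72.2 in hippocampus. The oxytocin receptor Oxtr reached 1.12 in SCO and 272 in hippocampus. Neither of these receptors was thus read in SCO beyond single reads. Crhr1, the main receptor of corticotropin-releasing hormone, ranged over 1.49 to 741 in SCO and 5.49 to 1025 in hippocampus, and Crhbp, which binds and holds that hormone, over 0 to 257 in SCO and 0 to 484 in hippocampus. Tacr3, the neurokinin B receptor, ranged over 0 to 623 in SCO and 0 to 949 in hippocampus. Ntsr2, a neurotensin receptor, spanned 0.913 to 401 in SCO and 0 to 401 in hippocampus, and the galanin receptor Galr1 spanned 0 to 224 in SCO and 0 to 494 in hippocampus. In all of these the tissues overlapped.

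Granins were abundant in both tissues, and none of the 6 granule genes passed the limma, edgeR or DESeq2 test or had an unadjusted limma p under 0.05. Scg2, secretogranin II, had 6363, 4873, 14071 and 22453 normalized counts in SCO, against 4459, 2853, 5655, 5287 and 10394 in hippocampus (log2 difference 0.92, SE 0.49, limma adjusted p = 0.407). Scg3, which links chromogranin A to the granule membrane, had 8912, 6931, 10260 and 9625 in SCO, against 6496, 9254, 10779, 9821 and 10595 in hippocampus (-0.06, SE 0.22, limma adjusted p = 0.903). The libraries of the tissues were interleaved. Chga, chromogranin A, had 836, 1918, 3914 and 2954 in SCO, against 1843, 1768, 1879, 2296 and 1843 in hippocampus (0.11, SE 0.42, limma adjusted p = 0.912), and Chgb, chromogranin B, had 5124, 2627, 4432 and 6773 in SCO, against 4670, 1763, 3305, 6694 and 6079 in hippocampus (0.14, SE 0.43, limma adjusted p = 0.891). Vgf, a nerve growth factor-induced granule protein, ranged over 8.86 to 361 in SCO and 59.9 to 147 in hippocampus, and Pcsk1n, an inhibitor of prohormone convertase 1, over 187 to 459 in SCO and 108 to 352 in hippocampus. All 6 granule genes overlapped between the tissues, in libraries whose summed pan-neuronal markers were 107547 to 195791 in SCO and 229135 to 264166 in hippocampus.

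Of the processing enzymes, none passed in limma, edgeR or DESeq2, and 1, Cpe, had an unadjusted limma p under 0.05. Cpe, carboxypeptidase E, which trims basic residues from cut peptides, had 20505, 14193, 12770 and 13281 normalized counts in SCO, against 9606, 13888, 9315, 7576 and 11389 in hippocampus (log2 difference 0.56, SE 0.23, limma adjusted p = 0.269). Only hippocampus replicate 2 reached the SCO range. Pcsk2, prohormone convertase 2, had 5013, 4812, 3793 and 4551 in SCO, against 3980, 1857, 4624, 3940 and 3035 in hippocampus (0.44, SE 0.29, limma adjusted p = 0.529). Pam, the amidating enzyme, had 2002, 2451, 2803 and 3462 in SCO, against 3827, 5429, 3690, 2654 and 3891 in hippocampus (-0.53, SE 0.28, limma adjusted p = 0.398). Pcsk1, the other prohormone convertase of the list, had 0, 0, 595 and 697 in SCO, against 569, 23.1, 328, 87 and 0 in hippocampus.

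To compare genes with one another, normalized counts were divided by the exon length of the gene in kilobases. In SCO the precursors ran from Sst (6238 ± 1483 per kilobase, SD, n = 4) and Npy (5159 ± 5612) to Nts (1725 ± 972), Penk (1439 ± 894), Nmb (1347 ± 190) and Tac1 (983 ± 84.2). The hippocampus was led by Nts (25685 ± 17218 per kilobase, SD, n = 5), Npy (11785 ± 9092), Sst (9511 ± 8122), Cck (9341 ± 4182) and Grp (1579 ± 898). The library ranges of neighbours in the SCO order overlapped down to Nmb, whose lowest library (1101) was just above the highest of Tac1 (1071). In hippocampus the ranges of Nts, Npy, Sst and Cck overlapped, and the highest library of Grp (3058) was below the lowest of Cck (5991). Cck ranked 14 of 18 precursors in SCO and 4 of 18 in hippocampus. Without hippocampus replicate 2, left out here after the data were seen, the hippocampal order was Nts (18595 ± 7759 per kilobase, SD, n = 4), Npy (7743 ± 1132), Cck (7566 ± 1517) and Sst (5883 ± 473), with Cck at rank 3. Among the 25 receptors with a length, the SCO order was Npsr1 (1000 ± 466 per kilobase), Cckbr (554 ± 254), Adcyap1r1 (522 ± 253), Npy1r (378 ± 187) and Sstr2 (246 ± 177), each overlapping with the next, while in hippocampus Sstr2 (2738 ± 992 per kilobase) stood well above Npy1r (582 ± 154), Avpr1a (540 ± 304) and Npy2r (257 ± 175). Oprl1 and Oprk1 had no matched length.

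**Figure D3:**
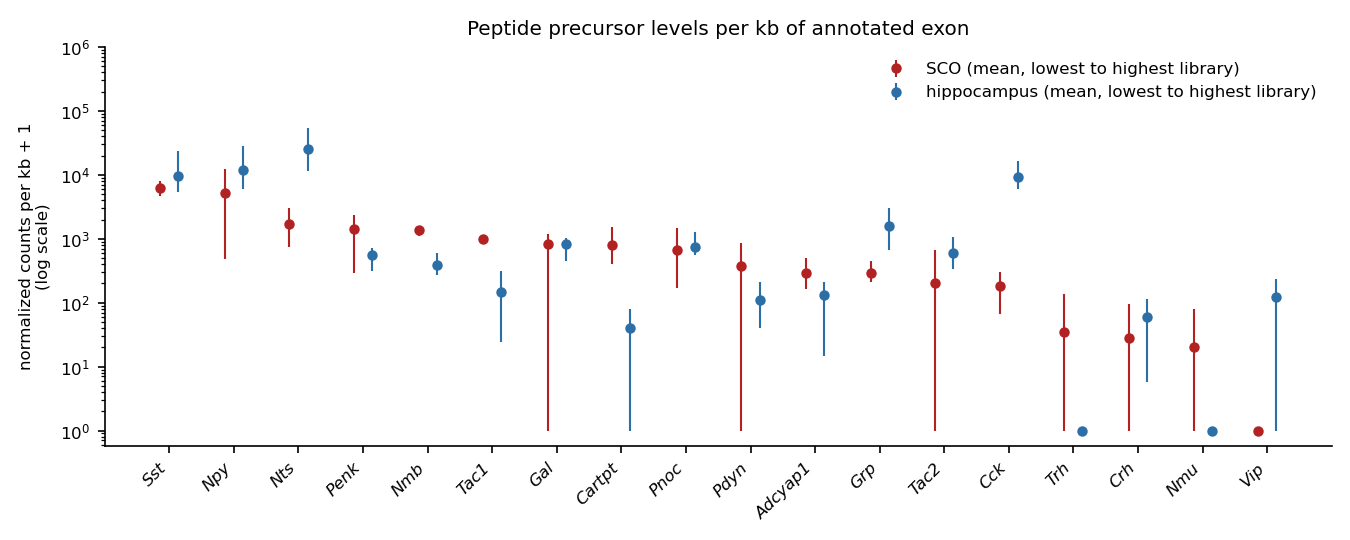
Normalized counts per kilobase of exon + 1 (log scale) of the 18 peptide precursors, ordered by their SCO mean; in each pair SCO is left (red) and hippocampus right (blue), points are means and bars run from the lowest to the highest library. Sst and Npy lead in SCO at means of 6238 and 5159, and Nts leads in hippocampus at 25685, followed there by Npy at 11785.

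Within SCO, some of the genes varied between libraries in 2 patterns, chosen after their values were seen. Of the 24 genes with an SCO mean of at least 500, 10 were highest in replicate 4 and 8 in replicate 3. Replicate 1 was the highest for 5 and replicate 2 for 1. Npy, Pnoc and Scg2 were highest in SCO replicate 4 and next in replicate 3. The GABA synthesis genes Gad1, with 2824, 8703, 23585 and 41842 normalized counts, and Gad2, with 430, 1178, 4244 and 6500, followed the same order of these libraries. The 6 pretectal and midbrain GABAergic markers summed to 12012, 16452, 17729 and 27661, and 4 of them (Tfap2b, Gata3, Tal1 and Sox14) were highest in replicate 4, while Gata2 was highest in replicate 3 and Otx2 in replicate 2. The choroid plexus markers also summed highest in replicate 4. The 7 pan-neuronal markers summed to 117361, 107547, 164627 and 195791, again highest in replicate 4 and next in replicate 3. Of these 7, 5 were highest in replicate 4, while Map2 and Rbfox3 were highest in replicate 2. GABAergic neurons and neurons in general thus cannot be told apart by this order. Cartpt, Tac2 and Adcyap1 were highest in SCO replicate 1. The 7 habenular markers summed to 33327, 24684, 19296 and 18730 normalized counts, highest in the same library. Of the 7, Nr4a2, Chrnb4, Pou4f1 and Gpr151 were highest in replicate 1, and none of these passed the test between tissues. The 3 that passed were not highest there: Chrna3 (4494, 5207, 2638 and 2376) and Irx2 (284, 400, 267 and 310) were highest in replicate 2, and Slc17a6 (11117, 11884, 15152 and 13343) was lowest in replicate 1. Pineal gland markers also summed highest in replicate 1, to 4992, 134, 1 and 0. Tac1 and Nmb followed neither pattern and varied little. Nts and Pdyn, highest in replicate 3, followed neither pattern as well. With 4 libraries no correlation is given, and the part of these cells in the levels was not tested.

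**Figure D4:**
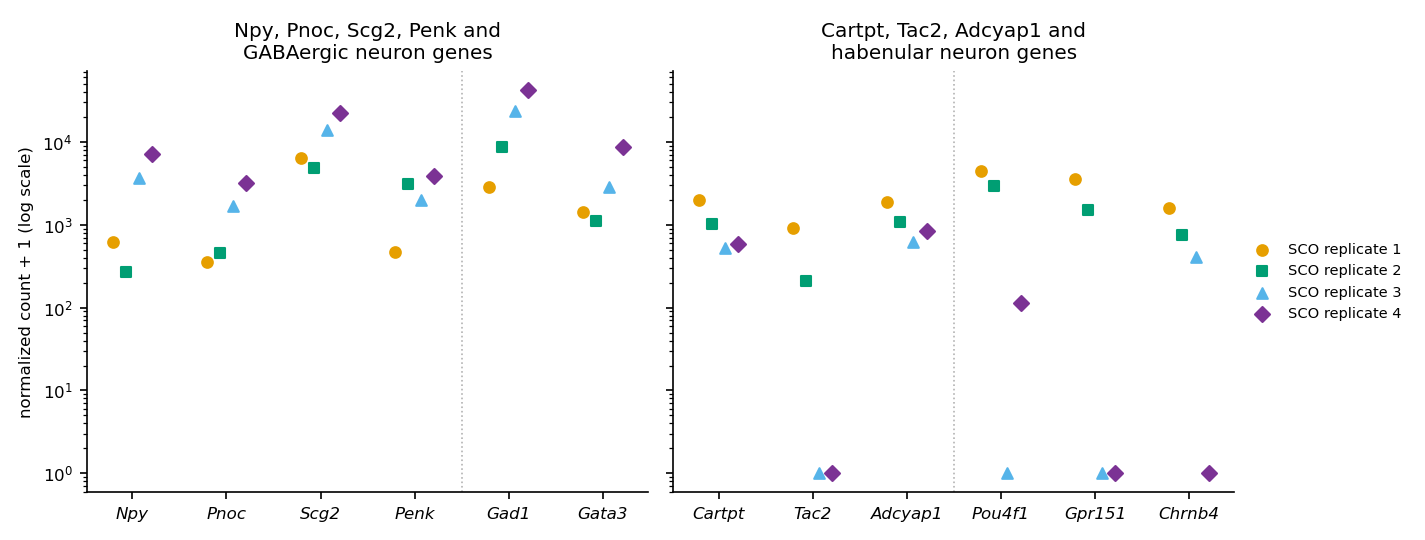
Normalized count + 1 (log scale) in each SCO library of Npy, Pnoc, Scg2 and Penk beside the GABAergic genes Gad1 and Gata3 (left panel), and of Cartpt, Tac2 and Adcyap1 beside the habenular genes Pou4f1, Gpr151 and Chrnb4 (right panel), all picked for this order. SCO replicate 4 is highest for every gene of the left panel and SCO replicate 1 for every gene of the right panel.

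Hippocampus replicate 2 was the extreme library for many of the genes. Of the 24 genes with a hippocampal mean of at least 500, it was the highest library in 9, among them Sst, Npy, Nts, Cck, Grp, Tac2 and Pnoc, and the lowest in 9, among them Oprl1, Npy2r, Npy1r, Sstr2, Scg2 and Chgb. Against the median of the other hippocampus libraries it held 4.12 times as much Sst, 3.44 times as much Npy and 2.97 times as much Nts, but 0.122 times as much Npy2r and 0.127 times as much Oprl1. Spearman's rho between this ratio and exon length was -0.66 over the 23 of these genes with a length, and -0.30 over 9657 protein-coding genes. The other 4 hippocampus libraries had rho of -0.22 to 0.47 over the same 23 genes. These are descriptions across genes of one library, and genes are not independent replicates. Without this library Cck, Nts, Grp, Sstr2, Tac1, Nmb and Npsr1 all passed. Vip, whose only hippocampal value of 0 lay in this library, did as well. Without it and SCO replicate 4 together, the limma adjusted p of Nmb was 0.0576 and that of Grp 0.0559, and the other 5 of the 7 passed.

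**Figure D5:**
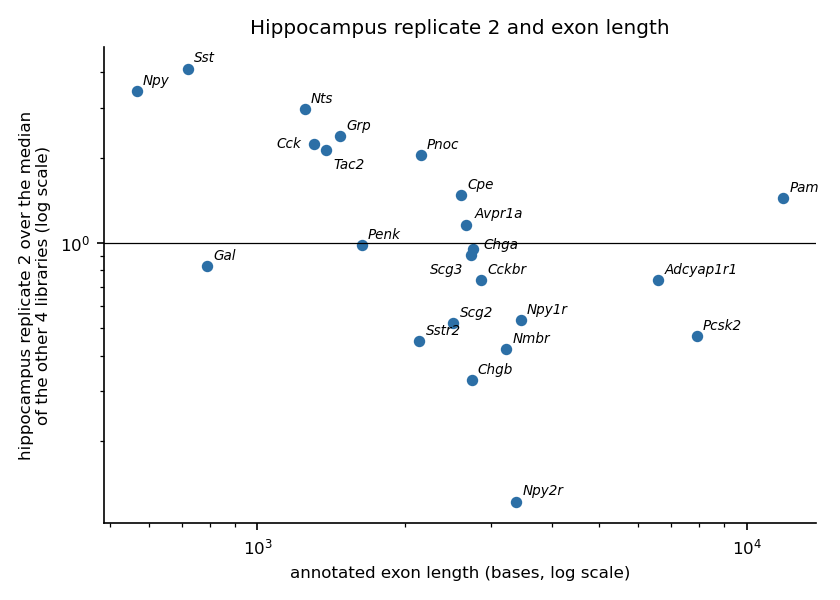
Ratio of hippocampus replicate 2 to the median of the other 4 hippocampus libraries (vertical, log scale) against annotated exon length in bases (horizontal, log scale) for the 23 genes with a hippocampal mean of at least 500 and a known length. Sst at 4.12 and Npy at 3.44, the genes with the shortest exon length shown, lie highest, and Npy2r at 0.122 lowest.

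Several of the genes were at 0 in one library and high in another of the same tissue. In SCO, 16 of the 47 members that reached 100 normalized counts in some library had another at 0 (34.0%), against 15.6% of protein-coding genes that reached 100. In hippocampus it was 14 of 49 (28.6%), against 13.2%. Receptors, which were 27 of the 56 genes, and genes of other roles were among them. Examples were Vipr2, a VIP and PACAP receptor, with 1003, 0, 0 and 692 in SCO, against 0, 0, 15.5, 611 and 0 in hippocampus, and Trhr, the TRH receptor, with 0, 605, 1120 and 0 in SCO, against 417, 0, 850, 0 and 0 in hippocampus.

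Other genes of the peptide pathway, 114 of 141 listed in the table and 107 tested, gave 4 called higher in SCO and 2 called lower. Together these were 5.61% of the 107, against 3.05% of all genes and 4.00% of protein-coding ones, and of all genes 1.71% were called higher and 1.34% lower. Ednrb, the endothelin B receptor of astrocytes and other cells, had 28032, 41343, 51844 and 25350 normalized counts in SCO, against 5102, 1114, 4144, 3898 and 4770 in hippocampus (log2 difference 3.38, SE 0.44, limma adjusted p = 0.0026). Gpr37l1, an astrocyte receptor, had 1807, 3488, 4176 and 1579 in SCO, against 327, 160, 229, 258 and 622 in hippocampus (3.14, SE 0.49, limma adjusted p = 0.00732). Both were higher in every SCO library. Cort, which encodes cortistatin, a somatostatin-like peptide of interneurons, had 0, 0, 0 and 2.24 in SCO, against 321, 1243, 259, 315 and 117 in hippocampus (-7.94, SE 1.00, limma adjusted p = 0.0021). The peptide closest to somatostatin was thus nearly absent in SCO, where Sst itself was not.

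Sct, which encodes secretin, had 680, 726, 302 and 621 normalized counts in SCO, against 1.25, 87.5, 0, 0 and 0 in hippocampus (log2 difference 7.58, SE 1.43, limma adjusted p = 0.0187). Without SCO replicate 1 or 2 its limma adjusted p was 0.054 to 0.0562, and in edgeR it was 0.245. Glp2r, the receptor of glucagon-like peptide 2, was lower in SCO, with 724, 1610, 2522 and 1049, against 4267, 4741, 5160, 3486 and 5139 in hippocampus (-1.77, SE 0.36, limma adjusted p = 0.0286). The call ended in 6 of 9 fits that left out a library. Ctsl, cathepsin L, a lysosomal protease that also cuts peptide precursors, had 15724, 12158, 20320 and 16389 in SCO, against 7530, 11093, 7657, 9136 and 8330 in hippocampus (0.88, SE 0.21, limma adjusted p = 0.0492). Its call ended in 7 of 9 such fits. Exons of Glp2r and Ctsl overlap those of other annotated genes, as do those of Pam, Pcsk2, Penk, Nmu, Oprm1, Nmbr and Pcsk1n among the 56.

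The authors' deposited table gave an adjusted p for 49 of the 56 genes and called 11 of them at 0.05, against 12.7% of all genes with an adjusted p there. These were the 7 named above with Cartpt (log2 fold change 4.38, adjusted p = 0.000801), Adcyap1r1 (1.73, adjusted p = 0.0326), Vip (-10.85, adjusted p = 4.62e-07) and Sstr3 (-22.61, adjusted p = 2.09e-10) in the authors' deposited table. Sstr3 had reads in 2 of the 5 hippocampus libraries, at 249 and 64.7 normalized counts, and none in SCO.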

How the data were processed

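Bulk RNA sequencing values of 4 SCO and 5 hippocampus libraries of postnatal day 0 were analysed; groups and replicate numbers come from the labels. Per the labels' protocols, RNA was extracted with the RNeasy Micro Kit and libraries were made with the TruePrep DNA Library Prep Kit V2. The submitters' processing notes list FastQC, HISAT, HISAT2, featureCounts, DESeq2 and build GRCm38. No source used here gives versions, annotation or strand setting. The deposited signal is read counts per gene divided by a size factor per library. The deposited log2 fold changes with their p-values and adjusted p-values, and a test statistic deposited as a score, carry the column names of DESeq2, per the file headers.

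Dividing each value by what 1 read is worth gave whole reads for 100% of values (tolerance 1e-06). Depth was 35379988 to 151009954 reads per library, and a gene at 0 was bounded by 3 reads per library, which covers counting error only, since no molecular identifiers are named. The main test was limma-trend (limma 3.58.1, R 4.3.3) on log2(value + 1), a pseudocount of 1, over 28150 genes whose mean was 1 or more in one of the tissues, with Benjamini-Hochberg adjustment over all of them. This scale understates the change of genes that are low in all libraries. It can overstate the change of a gene at 0 in some libraries and high in others. Gal, at 0 in 1 SCO library, had a log2 difference of -1.98 with means of 648.5 in SCO and 651.9 in hippocampus. Alternatives were pseudocounts of 0.5 and 10, no filter, a mean of at least 10, TMM scaling, edgeR 4.0.16 quasi-likelihood and DESeq2 1.42.0 on the recovered reads, robust moderation, a replicate block, and leaving out single or paired libraries. The tests were checked on simulated counts, with the same dispersion for every gene and changes set only in genes above a minimum mean. That check does not cover genes at 0 in some libraries and high in others of the same tissue. Replicates of a tissue differed beyond sampling noise.

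The 56 genes, the other lists and the tests were chosen with earlier results of these data known. Every called gene was to be named with its values, as was every uncalled one whose mean reached 500 in one of the tissues, and called genes of the other pathway list with a mean of at least 100, at most 12. Lower genes named beside these, and the patterns across SCO libraries, were chosen after their values were seen. Exon lengths and gene positions come from GENCODE M21 by versioned identifier (54 of 56 genes matched), and promoters from a RefSeq table of GRCm38.p6 (46 of 56). Figures were drawn with matplotlib 3.10.9 in Python 3.11.15.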

Additional observations from a re-analysis of the deposited data

Results flagged for a closer look

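Of 104 sets of values (1 gene in 1 tissue), 25 held a library far from the others on log2(value + 1) by Dixon's test at its 95% critical value. For normally distributed values chance gives this in about 1 of 20 sets. That rate does not hold here, because a set with reads in 1 library alone is always flagged. Such sets were those of Ntsr1, Nmu, Trh, Npy5r and Galr1 in SCO and of Oprk1, Sstr4 and Grpr in hippocampus. Hippocampus replicate 2 was that library in 8 sets and SCO replicate 2 in 4. Values are normalized counts.

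In SCO, replicate 2 had 0 for Pdyn (704 to 2460 in the others), 0 for Avpr1a (325 to 395), 0 for Gal (797 to 918) and 224.4 for Galr1 (0 in the others). Replicate 1 had 0 for Tacr3 (235 to 623 in the others). Replicate 3 held the only SCO reads of Trh (189) and Nmu (63.92). Replicate 4 held those of Ntsr1 (398.5) and Npy5r (627.9).

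In hippocampus, replicate 2 was high for Npy (15823, against 3445 to 4886 in the others), Sst (17320, against 3945 to 4620), Pnoc (2788, against 1186 to 1422), Oxtr (272.4, against 0 to 1.46), Oprd1 (18.16, against 0 to 1.03) and Sstr4 (34.67, against 0). It was low for Oprl1 (572.8, against 3900 to 4803) and Vip (0, against 392 to 807). Replicate 1 was low for Penk (511.8, against 937 to 1153) and Cckbr (2.497, against 480 to 746). Replicate 3 held the only hippocampal reads of Oprk1 (252.8). Replicate 4 was high for Chga (2296, against 1768 to 1879), held the only reads of Grpr (28.89) and was low for Crhr1 (5.485, against 398 to 1025). Replicate 5 was low for Oprm1 (0.3806, against 140 to 639) and Cartpt (0, against 33.7 to 101).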

How the results depend on the processing

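Cck and Nts passed in limma, edgeR and DESeq2 and under every setting run. The number of the 56 genes called higher in SCO was 3, and became 0 in edgeR, 5 in DESeq2, and 1 to 3 when 1 library was left out. The number called lower was 4, and 3 to 5 without 1 library. Over all genes the count of 859 became 503 in edgeR, 2708 in DESeq2, 449 without the 2 deepest libraries and 498 to 1077 without 1 library. For the other pathway genes the count of 6 became 3 in edgeR, 19 in DESeq2, 3 without the 2 deepest libraries and 4 to 7 without 1 library. The cause was not tested. SCO and hippocampus libraries of the same replicate number did not deviate together (correlations of -0.0289 to 0.0189, none over 0.1). The highest correlation of any pair was 0.0569, for SCO replicate 3 and hippocampus replicate 4, whose titles carry the same number. The titles of SCO replicate 2 and hippocampus replicate 2 also share a number, and their correlation was -0.0248. Such correlations cannot decide whether libraries share an animal or litter, which the labels do not state. With the replicate block the counts were 1 higher, 2 lower, 180 of all genes and 1 of the other pathway genes. Of 600 values of 30 named genes under alternatives, 550 kept direction and side of the threshold, 30 lost the call, 6 gained one and 14 changed sign, all in uncalled genes. These 14 log2 fold changes were 0.40, 1.74, 1.75 and 2.19 for Pdyn (pseudocount 10, edgeR, DESeq2, without SCO replicate 2), -0.06, -0.16 and -0.36 for Chgb (without SCO replicate 4, hippocampus replicate 2, both), 0.05 and 0.03 for Scg3 (without SCO replicate 2, without the deepest 2), -0.19, -0.06 and -0.08 for Chga (without SCO replicate 3, without SCO replicate 4, without SCO 4 and hippocampus 2), 0.06 for Sst (without hippocampus replicate 2) and 0.46 for Gal (without SCO replicate 2). Leaving out 1 library gave ranges of -1.57 to 2.19 for Pdyn, -0.19 to 0.55 for Chga, -0.48 to 0.06 for Sst and -2.82 to 0.46 for Gal. Values at 0 in a library are limited by its depth, and 4 against 5 libraries limit the test of genes that vary between them.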
